A study of Mus musculus with 53 samples.

Results

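A serrated tumour route and a Wnt-driven tumour route were compared through their tumour effects, each tumour being set against normal tissue of its own site. The contrast was the interaction (BA tumour minus WT proximal colon) minus (Apc fl/+ tumour minus WT small intestine), so a positive value means a larger rise or a smaller fall in BA tumours. It rested on 15 of the 53 libraries of the series, namely 4 BA tumours, 3 WT proximal colons, 5 Apc fl/+ tumours and 3 WT small intestines without a day in their label. Libraries were made from tissue RNA, and the deposited values were raw read counts per gene.

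The BA tumours were primary tumours of the proximal colon from VilCreER+ mice carrying BrafV600E/+ and Alk5fl/fl, where Alk5 is the other name of Tgfbr1, a TGFβ receptor. The Apc fl/+ tumours were primary tumours of the small intestine from VilCreER+ mice with a single floxed copy of the Wnt pathway inhibitor Apc, so that loss of the remaining copy is left to chance. WT mice carried VilCreER alone. In all 4 groups the Villin promoter limits the inducible Cre to the intestinal epithelium, so stroma and immune cells of every sample were of normal genotype. The colon groups were labelled as a mixed C57BL/6J background and the small intestine groups as inbred. Tumour route therefore cannot be told apart from intestinal site or genetic background, nor fully from sex, as given below. The value of the interaction includes the difference between the WT tissues with its sign turned. The labels number the libraries without naming animals, so p-values measure the spread between libraries.

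In the canonical route to intestinal cancer, loss of Apc stabilises β-catenin, which drives TCF/LEF target genes, and dividing crypt-like cells accumulate. In the serrated route, mutant BRAF drives the MEK-ERK cascade, whose nuclear output includes AP-1, a dimer of FOS and JUN proteins, while loss of TGFβ signalling removes a brake on epithelial growth. Injured intestinal epithelium can also return to a foetal-like state marked by Ly6 and annexin genes, with YAP activity and few Lgr5-positive stem cells.

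A pair of libraries stood apart from their labels. In the library labelled Apc fl/+ tumour 2, the small intestinal regulator Gata4 was at 0.545 CPM (counts scaled to the library total) against 72.9 to 88.0 in the other 4, and the posterior gene Hoxb13 was at 283 CPM against at most 0.921. In BA tumour 2, Gata4 was at 11.5 CPM and the lactase gene Lct at 129 CPM, against at most 0.122 and 1.06 CPM in the other BA tumours. Lead counts are therefore given also without both libraries, an alternative added after seeing the data. BA tumour 2 also had the fewest counts of the 15 libraries (12021486). Of counts in BA tumours, 9.65% to 24.3% were not protein-coding and 2.12% to 11.7% were mitochondrial. In the other groups these shares were at most 13.7% and 4.75%. Which results these shares affect was not tested. The Y-linked gene Ddx3y was above 28 CPM in BA tumours 2 to 4, in Apc fl/+ tumour 1 and in the 3 WT small intestines. It was at most 0.185 CPM elsewhere, so sex was unevenly spread over the groups. By this gene, the BA effect set mostly male tumours against female WT tissue. The Apc effect set mostly female tumours against male WT tissue. Sex thus ran partly along the interaction, and along genes of opposite effect, and cannot be fully told apart from tumour route. Counts of the deleted genes were no check of the labels: Tgfbr1 stood at 70.8 to 172 CPM in BA tumours against 47.7 to 54.7 CPM in WT colon, and counts per gene do not resolve a floxed exon.

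Sequence upstream of 4 genes is shown because these genes carry the shared, BA-specific and Apc-specific patterns described below. They were chosen after their values were seen. Each run is the 250 bases before the RefSeq transcription start (GRCm38.p6), 5′ to 3′ on the strand of the gene. Capitals mark the AP-1 letters TGANTCA in the first 3 and the overlapping interferon-response letters (ISRE, GAAA, any 2 bases and GAAA again) in the last. Mmp10, a secreted protease whose rise was shared, has its window at chr9:7502092-7502341 (plus strand). Anxa10, a gastric-type annexin whose rise was shared, has it at chr8:62123194-62123443 (minus strand). Mmp7, a protease that passed in the BA effect and not in the Apc effect, has it at chr9:7691840-7692089 (plus strand, the first of 2 windows listed). Isg15, an interferon-induced modifier whose fall was Apc-specific, has it at chr4:156200819-156201068 (minus strand).
Mmp10: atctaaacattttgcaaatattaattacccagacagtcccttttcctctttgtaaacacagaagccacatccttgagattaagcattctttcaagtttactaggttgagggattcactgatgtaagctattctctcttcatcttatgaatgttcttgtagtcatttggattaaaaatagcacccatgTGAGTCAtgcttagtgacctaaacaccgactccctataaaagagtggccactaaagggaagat
Anxa10: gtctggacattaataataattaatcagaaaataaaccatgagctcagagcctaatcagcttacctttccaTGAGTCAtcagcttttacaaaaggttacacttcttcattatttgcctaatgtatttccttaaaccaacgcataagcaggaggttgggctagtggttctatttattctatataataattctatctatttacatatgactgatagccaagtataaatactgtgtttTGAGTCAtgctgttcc
Mmp7: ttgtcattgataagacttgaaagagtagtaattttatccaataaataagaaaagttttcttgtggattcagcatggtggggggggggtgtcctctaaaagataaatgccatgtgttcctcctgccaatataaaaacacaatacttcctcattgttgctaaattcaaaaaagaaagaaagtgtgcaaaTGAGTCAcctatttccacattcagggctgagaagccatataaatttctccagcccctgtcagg
Isg15: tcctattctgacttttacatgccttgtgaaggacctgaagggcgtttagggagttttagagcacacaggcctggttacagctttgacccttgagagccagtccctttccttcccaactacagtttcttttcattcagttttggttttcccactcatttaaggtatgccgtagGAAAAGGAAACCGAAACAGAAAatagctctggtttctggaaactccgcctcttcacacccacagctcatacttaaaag
The AP-1 letters began at position -63 in both Mmp10 and Mmp7, and at -180 and -16 in Anxa10. The ISRE letters of Isg15 began at -78, -72 and -66. Searched on both strands, the AP-1 letters stood in 6.87% and the ISRE letters in 3.04% of the 27025 promoter windows in the table. A match is a description of letters and not a measured binding site. Notum has no entry.

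The routes differed at many genes, and more genes were shared or specific than moved in opposite directions. Of 21668 genes tested, 4758 (22.0%) passed for the BA effect, 2655 higher and 2103 lower, and 10762 (49.7%) passed for the Apc effect, 5067 higher and 5695 lower (edgeR quasi-likelihood, adjusted p under 0.05). The interaction passed for 8596 genes (39.7%), with 4752 more positive in the BA effect and 3844 in the Apc effect. WT proximal colon and WT small intestine themselves differed at 9783 genes (45.1%). Over all genes tested, the log2 fold changes of both effects had a Pearson r of 0.0836 and a Spearman rho of -0.0366, across genes, which are not independent replicates.

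Genes were classed by these 3 tests. Shared genes passed both effects in the same direction, which held for 974 higher (4.50%) and 522 lower (2.41%). Of the shared genes, the interaction did not pass for 766 and 489. BA-specific genes passed the BA effect and the interaction but not the Apc effect, with 737 higher (3.40%) and 697 lower (3.22%). Apc-specific genes, defined likewise, numbered 2205 higher (10.2%) and 3043 lower (14.0%). Opposite genes passed both effects with different signs, 528 with BA higher (2.44%) and 464 with BA lower (2.14%). A further 836 genes passed the BA effect and 3026 the Apc effect with no call of the interaction, and are counted as neither shared nor specific. The interaction alone passed for 681 genes (3.14%), and 7955 genes (36.7%) passed none of the 3 tests. Without both libraries that stood apart, 32.0% of 21652 genes passed for the BA effect (16.0% higher, 16.1% lower), 61.7% for the Apc effect (32.1% and 29.6%) and 53.1% for the interaction (25.6% and 27.5%). There, shared genes numbered 1430 higher and 816 lower, BA-specific 835 and 903, Apc-specific 3045 and 3416, and opposite 809 and 1349. The opposite count with BA lower thus depended most on those libraries.

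**Figure D1:**
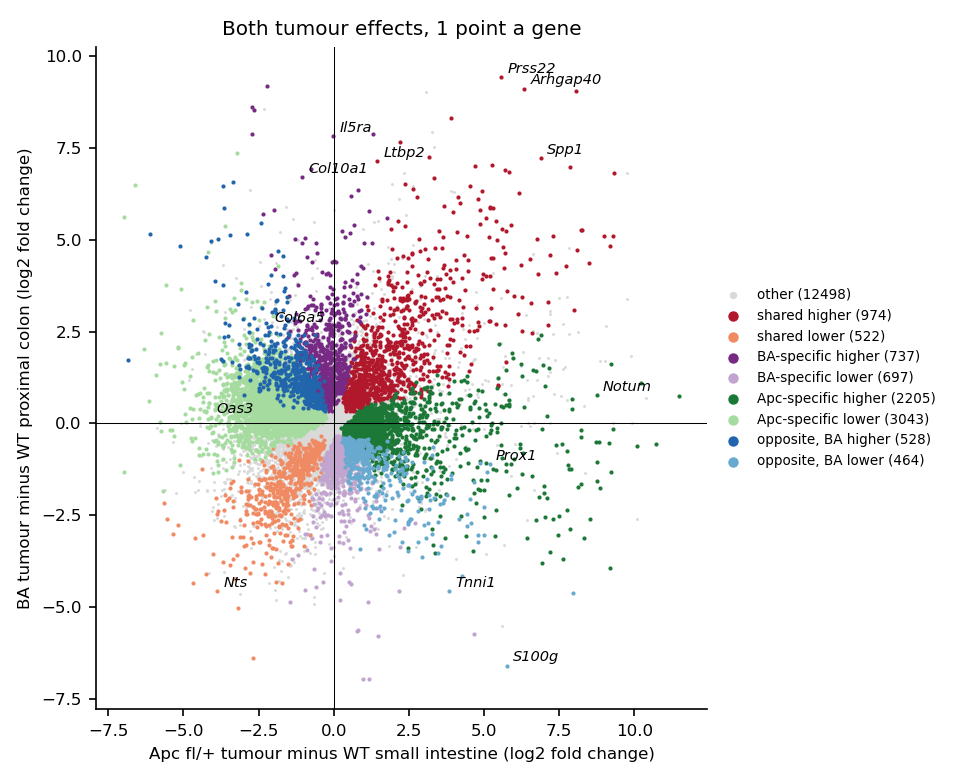
Each point is 1 of the genes tested, with the Apc effect on the x axis and the BA effect on the y axis (log2 fold change, edgeR), coloured by class. Shared genes lie along the rising diagonal with Prss22 and Spp1 at its upper end and Nts at its lower end, while S100g and Tnni1 lie in the corner of Apc higher and BA lower.

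Rises shared by both routes were counted in lists of foetal, protease and inflammatory genes. Like the other lists below, these were chosen with earlier results of these data known, so their shares may in part follow from that choice. Of 22 foetal and injury-response genes, 18 were shared higher, with a list median of 2.56 (log2) for the BA effect and 2.97 for the Apc effect, beside 0.0686 and -0.00593 over all genes tested. Without both libraries 19 were shared higher. Of 19 proteases and protease inhibitors 14 were shared higher, of 24 inflammatory cytokines 13, and of 10 neutrophil genes 9. Against these shares stood 4.50% of all genes. With the Ddx3y level as a covariate, which stands for sex, the counts were 9 of the foetal list and 5 of the neutrophil list. Of 15 fibroblast and matrix genes 8 were shared higher.

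Prss22, a trypsin-like serine protease on chromosome 17 (GRCm38 chr17:23993534-23998100), was nearly silent in both normal tissues. It stood at 13.5, 86.1, 31.6 and 45.7 normalised CPM in BA tumours and at 0.0667, 0.0585 and 0.0469 in WT proximal colon. In Apc fl/+ tumours it stood at 7.86, 4.97, 7.05, 7.90 and 6.36, against 0.0497, 0.215 and 0.157 in WT small intestine. That no tumour overlapped its normal tissue was a condition of the rule for naming. The BA tumours were all above the Apc tumours, which the rule did not require. The BA effect was 9.42 ± 0.74 (log2, SE) and the Apc effect 5.56 ± 0.64, with an interaction of 3.86 ± 1.14 (adjusted p = 0.0163).

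Arhgap40, a gene of the GTPase-activating protein family, followed the same order. Its BA tumours stood at 18.6, 14.1, 13.6 and 32.2 normalised CPM and its Apc tumours at 3.71, 3.39, 2.96, 3.41 and 2.89, while no WT library exceeded 0.0939. Both effects passed (adjusted p = 3.47e-06 and 7.89e-06), and the interaction did not (adjusted p = 0.129).

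Spp1, which encodes the secreted phosphoprotein osteopontin, rose to a like degree in both routes. BA tumours held 120, 356, 286 and 1944 normalised CPM against 2.40, 6.14 and 5.07 in WT proximal colon. Apc tumours held 113, 74.0, 41.4, 85.0 and 191 against 0.547, 1.02 and 0.997 in WT small intestine. The BA effect was 7.23 ± 1.01 and the Apc effect 6.88 ± 1.02, with an interaction of 0.35 ± 1.14. BA tumour 4 was the highest library, and macrophages as well as epithelium are known to make this protein.

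Ly6g, a Ly6-family gene best known as a neutrophil surface marker, met the definition of shared but at unequal levels. BA tumours stood at 111, 411, 293 and 292 normalised CPM against at most 0.657 in WT proximal colon. Apc tumours stood at 1.35, 25, 1.87, 1.54 and 1.11, the highest being the library labelled Apc fl/+ tumour 2, and WT small intestine at 0, 0 and 0.0525. The other tested neutrophil genes did not show that ratio between tumours. S100a8, a neutrophil calcium-binding protein, was at 1.57 to 22.0 normalised CPM in BA tumours and 2.96 to 19.8 in Apc tumours.

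Among foetal markers, Ly6a (Sca-1) rose by 2.99 ± 0.54 in BA tumours and 1.31 ± 0.49 in Apc tumours. Of its 36-base words 28.8% occur in another transcript, so its count is less certain. Anxa1, an annexin of resolving inflammation, rose by 2.84 and 3.87, and Clu (clusterin), the marker of revival stem cells, by 4.79 ± 0.81 and 5.63 ± 0.83. Clu levels ran from 277 to 855 normalised CPM in BA tumours and from 456 to 2406 in Apc tumours. Msln (mesothelin) rose by 6.5 ± 0.94 and 2.37 ± 0.76, with an interaction of 4.13 ± 1.05 (adjusted p = 0.00773). Anxa10 stood at 4.39, 12.5, 4.37 and 2.26 normalised CPM in BA tumours and at 234, 0.287, 202, 273 and 186 in Apc tumours. The low Apc value was the library labelled Apc fl/+ tumour 2, and WT values were at most 0.315. Sprr1a, a cornified-envelope gene on the same list, was Apc-specific higher (Apc effect 5.63), and Ly6c1 was BA-specific higher (BA effect 2.84).

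Proteases and their inhibitors were largely shared higher, as counted above. The stromelysin Mmp10 rose from 0.367, 0.234 and 0.986 normalised CPM in WT proximal colon to 40.0, 35.1, 32.6 and 46.2 in BA tumours. In the small intestine it rose from 37.0, 42.0 and 42.0 to 281, 198, 246, 390 and 254. Levels of BA tumours thus reached those of normal small intestine, and the interaction was 3.40 ± 0.44 (adjusted p = 0.000132). Timp1, the metalloproteinase inhibitor, rose by 4.45 ± 0.37 and 4.06 ± 0.37. Plaur, the urokinase receptor, rose by 3.16 and 2.87. Plau, the urokinase itself, was Apc-specific higher (BA effect 0.18, Apc effect 2.1).

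The chemokines Cxcl1, Cxcl2, Cxcl3 and Cxcl5, which attract neutrophils, rose in both routes, by 4.99 to 7.00 in BA tumours and by 4.10 to 5.44 in Apc tumours. Il11, an epithelial repair cytokine, rose by 4.49 ± 0.64 and 6.54 ± 0.65, and Il1b by 3.47 and 2.91. The summed level of the 10 neutrophil genes was 166.9 to 549.7 CPM in BA tumours against 10.98 to 17.72 in WT proximal colon, and 102.9 to 217.5 in Apc tumours against 33.53 to 48.41 in WT small intestine. Ly6g alone made up most of the sum in BA tumours (111 to 411 CPM). In BA colon at day 30 it stood at 334 to 530, with S100a8 and S100a9 at most 0.307. The 15 fibroblast and matrix genes summed to 7911 to 9952 CPM in BA tumours against 2855 to 4510, and to 4289 to 6432 in Apc tumours against 1988 to 2540. In bulk tissue, more cells of a type and more RNA per cell cannot be told apart. Whether neutrophil or stromal content carries the cytokine and protease rises was not tested. Lif, a cytokine of the Il6 family, was BA-specific higher (3.31 against 0.30), as were the chemokines Ccl3 (2.56 against -0.02) and Ccl4 (2.42 against -0.71). The calls of Ccl4 changed without both libraries, where its interaction alone passed.

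ERK output genes were shared more than they were specific. Of 21 tested, 12 were shared higher, 3 BA-specific higher and 2 Apc-specific higher, against 4.50%, 3.40% and 10.2% of all genes. The Apc-specific count is thus near the share of all genes. Without both libraries the counts were 12, 2 and 2. The list median was 1.51 for the BA effect and 1.09 for the Apc effect. Dusp4, an ERK phosphatase, rose by 3.14 ± 0.27 and 2.94 ± 0.26, and Etv4, an ETS factor, by 3.32 ± 0.47 and 2.71 ± 0.45. Dusp6, the cytoplasmic ERK phosphatase, rose by 2.28 ± 0.28 in BA and by 0.66 ± 0.26 in Apc tumours, with an interaction of 1.62 ± 0.36 (adjusted p = 0.00391). Of YAP/TEAD targets 8 of 18 were shared higher (11 without both libraries), against 4.50% of all genes. The shared targets included Ajuba, Tead4 and the tissue factor gene F3. Inhba, the activin subunit, rose by 3.38 ± 0.40 and 3.65 ± 0.39, and Cdkn2a, the p16 and p19 tumour suppressor locus, by 5.90 ± 1.07 and 5.21 ± 1.16.

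**Figure D2:**
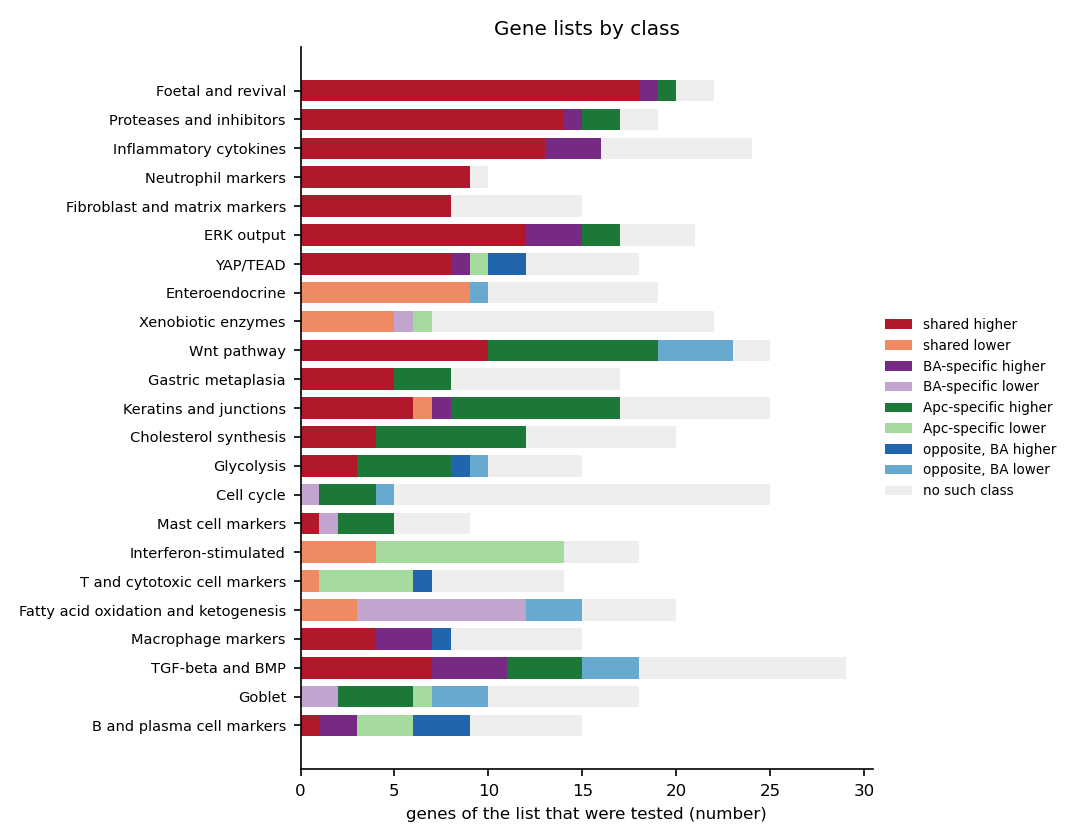
Bars give the number of tested genes of each list in each class, with grey for genes in none of the 8 classes. The top 7 lists are led by shared higher genes, enteroendocrine and xenobiotic genes by shared lower, interferon-stimulated genes by Apc-specific lower and fatty acid oxidation genes by BA-specific lower.

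Shared falls were counted among enteroendocrine genes, xenobiotic enzymes and smooth muscle genes. Of 19 enteroendocrine genes 9 were shared lower (11 without both libraries), against 2.41% of all genes. The list median was -2.01 for the BA effect and -1.39 for the Apc effect. Of 22 xenobiotic enzymes and transporters 5 were shared lower, and 12 without both libraries. Smooth muscle genes went the same way, with 3 of 10 shared lower and a summed level of 1834 to 3696 CPM in BA tumours against 2561 to 10220, and 561.3 to 1094 in Apc tumours against 1204 to 2029.

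Nts, the neurotensin gene of N-type endocrine cells, stood at 5.11, 2.26, 1.26 and 1.69 normalised CPM in BA tumours against 92.0, 29.1 and 63.1 in WT proximal colon. In Apc tumours it was at 1.16, 0.287, 4.41, 0.863 and 0.939 against 21.9, 23.2 and 22.4. The effects were -4.56 ± 0.69 and -3.87 ± 0.63, and the interaction was -0.68 ± 0.90. Pcp4, a calmodulin regulator, fell by 5.01 ± 0.57 and 3.19 ± 0.53 on the log2 scale. Dab1, an adaptor of Reelin signalling, fell by 3.68 ± 0.80 and 3.35 ± 0.56. Naaladl1, an intestinal peptidase, fell by 3.12 ± 1.06 and 4.62 ± 1.01, with BA tumour 2 at 23.8 normalised CPM and the other BA tumours at 1.09 to 3.76. Chga, the secretory granule protein chromogranin A, fell by 3.06 ± 0.51 and 1.37 ± 0.46, and Sct (secretin) by 4.33 ± 0.62 and 1.72 ± 0.53, with an interaction for Sct of -2.61 ± 0.81 (adjusted p = 0.0207). Pyy, the peptide YY gene, was the exception on this list. It fell by 2.32 ± 0.73 in BA tumours and rose by 3.16 ± 0.86 in Apc tumours, where the library labelled Apc fl/+ tumour 2 held 24.4 normalised CPM and the others 1.45 to 4.97.

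Apc-specific rises were led by Wnt pathway genes. All 25 Wnt targets and feedback genes tested rose in Apc tumours, with or without both libraries, against 23.4% of all genes. In BA tumours 10 rose and 4 fell, against 12.3% and 9.71%. Thus 10 were shared higher, 9 Apc-specific and 4 opposite, and the list median was 0.84 for the BA effect and 2.49 for the Apc effect. Of the 113 tested names of the study's own Wnt-target heatmap, a list the study chose and so no independent evidence of direction, 74 rose in Apc tumours, 22 were shared higher, 35 Apc-specific higher and 7 opposite with BA lower.

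Notum, a secreted enzyme that inactivates Wnt ligands (GRCm38 chr11:120653788-120661175), was all but confined to Apc tumours. It stood there at 209, 139, 174, 216 and 239 normalised CPM and at 0.403, 1.29, 0.632 and 0.524 in BA tumours. WT proximal colon held 0.467, 0.175 and 0.422, and WT small intestine 0.596, 0.377 and 0.367. The Apc effect was 8.75 ± 0.40, the BA effect 0.78 ± 0.40 (adjusted p = 0.185) and the interaction -7.96 ± 0.58 (adjusted p = 2.27e-06). Notum overlaps Notumos and Myadml2os on the other strand, and the strand setting of the counts is not given in the sources used here.

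Wif1, a Wnt-binding inhibitor, stood at 110, 163, 105, 128 and 211 normalised CPM in Apc tumours and at 2.15 to 4.20 in BA tumours, with an interaction of -7.25 ± 0.76. The stem cell receptor Lgr5 rose by 2.39 ± 0.33 in Apc tumours and was -0.46 ± 0.33 in BA tumours, and Axin2, a component of the β-catenin destruction complex, rose by 1.63 ± 0.31 and was -0.34 ± 0.31. Cd44, Myc, Ephb2, Tcf7, Rnf43, Fgfr4, Dkk2, Dkk3, Wnt10a and Krt23 passed in both effects, by 0.91 to 5.30 in BA tumours and 0.93 to 5.6 in Apc tumours. Myc rose by 1.62 in BA tumours and 0.93 in Apc tumours.

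The developmental regulator Sox21 stood at 19.8, 28.6, 8.73, 12.3 and 16.5 normalised CPM in Apc tumours and at 0 in all 3 WT small intestines, at least 331-fold higher against a floor of 3 counts over the group. In the colon it was at 0.862 to 7.03 in BA tumours and 1.23 to 3.85 in WT. T, the brachyury gene and a known Wnt target, was at 33.0, 5.68, 24.8, 26.0 and 35.8 in Apc tumours and at most 0.0806 in all other libraries. Hoxa10 ranked first in this class through a single library, the one labelled Apc fl/+ tumour 2, at 47.7 normalised CPM against 0.136 to 1.53 in the other 4. Mug1, a protease inhibitor of the murinoglobulin family, rested on Apc fl/+ tumour 4 at 73.9 normalised CPM, against 0.382 to 7.62 in the others, and shares 24.5% of its 36-base words with its paralogue Mug2.

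Gastric and stratified-epithelium genes were called in both routes. Of 17 gastric genes tested 15 rose in Apc tumours and 6 in BA tumours, against 23.4% and 12.3% of all genes. The interaction, which tests the difference between routes, was negative for 3 and positive for 1, against 17.7% and 21.9% of all genes. The negative count is thus near the share of all genes. Of the list 5 were shared higher, against 4.50% of all genes. Without both libraries, 9 of 16 were shared higher and the interaction was negative for 7, against 27.5% of all genes. Aqp5, a gland aquaporin, stood at 54.8, 4.16, 69.4, 128 and 70.0 normalised CPM in Apc tumours and at 2.78 to 4.52 in BA tumours, with WT libraries at most 0.377. Vsig1, a gastric junction protein, stood at 13.8 to 28.3 in BA and 10.0 to 35.1 in Apc tumours. Tff2, a trefoil peptide of the gastric antrum, was at 16.0, 0.382, 14.8, 177 and 414 in Apc tumours and at most 0.969 in BA tumours. Of 25 keratin and junction genes 19 rose in Apc tumours, 9 of them Apc-specific, including the claudins Cldn1 (2.61) and Cldn2 (2.45 ± 0.47). Wfdc18, a whey acidic protein family gene, rose by 9.21 ± 1.08 in Apc tumours and was 1.62 ± 0.76 in BA tumours.

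Cholesterol synthesis and mast cell genes were mostly called in the Apc effect. Of 20 cholesterol synthesis genes 17 rose in Apc tumours, 8 Apc-specific and 4 shared, and 4 rose in BA tumours, against 23.4% and 12.3% of all genes. Fdft1, the squalene synthase, rose by 1.85 ± 0.19 there and was 0.26 ± 0.19 in BA tumours. Its levels were 119 to 160 normalised CPM in Apc tumours and 118 to 173 in BA tumours, with WT proximal colon at 84.7 to 143 and WT small intestine at 34.3 to 40.5. The tumours thus had like levels and the normal tissues did not. Of 15 glycolytic genes 11 rose in Apc tumours and 4 in BA tumours, and Hk1 (hexokinase 1) showed the same arrangement, at 68.1 to 99.1 in Apc tumours against 21.3 to 23.1, and 87.5 to 200 in BA tumours against 147 to 192. Of 9 mast cell genes 8 rose in Apc tumours, among them the mast cell protease Mcpt2 (5.08 ± 1.01). Their summed level was 71.38 to 188.1 CPM in Apc tumours against 16.90 to 22.51 in WT small intestine, and 24.18 to 49.68 in BA tumours against 48.77 to 74.71 in WT proximal colon. Of 25 cell cycle genes 8 rose in Apc tumours (16 without both libraries) and 0 in BA tumours, the first count being near the 23.4% of all genes.

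Interferon-stimulated genes fell in Apc tumours. Of 18 tested, 16 fell there and 4 in BA tumours, against 26.3% and 9.71% of all genes. Thus 10 were Apc-specific lower and 4 shared lower, the same numbers with and without both libraries. Oas3, a sensor of viral RNA, stood at 7.62, 3.30, 1.77, 4.09 and 3.96 normalised CPM in Apc tumours against 44.8, 75.7 and 92.6 in WT small intestine. BA tumours held 7.53, 27.7, 7.53 and 9.55 and WT proximal colon 8.27, 14.0 and 12.2. The Apc effect was -4.10 ± 0.47 and the interaction 4.27 ± 0.69 (adjusted p = 0.00062). Isg15, whose promoter is shown above, stood at 0.954 to 2.22 in Apc tumours against 4.77, 18.7 and 17.8, an Apc effect of -3.21 ± 0.53. For Isg15, BA tumours held 0.804 to 5.39 and WT proximal colon 1.23 to 3.24, so BA tumour 2 was above WT small intestine 1. With the Ddx3y covariate 5 of the list were Apc-specific lower.

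T and cytotoxic cell genes moved alongside, with 11 of 14 lower in Apc tumours (4 with the Ddx3y covariate) and 1 in BA tumours. Of all genes 26.3% were lower in Apc tumours and 9.71% in BA tumours. The summed level of the T and cytotoxic cell genes was 159.7 to 180.0 CPM in WT small intestine and 17.09 to 51.13 in the other 3 groups. The part of this fall in the interferon result was not tested. Absorptive genes were among those that fell. Mbl2, Slc5a12 and Slc2a2 (the basolateral glucose transporter) were high in WT small intestine, at 26.6 to 62.6, 274 to 381 and 510 to 816 normalised CPM. They fell to at most 1.23, 6.91 and 75.7 in Apc tumours. In the colon groups they were at most 0.927, except in BA tumour 2, which held 8.29, 41.9 and 69.3. Their interaction rested in part on that library. Defa17, a Paneth cell defensin, fell by 3.23 ± 0.83, and it shares 92.3% of its 36-base words with Defa3, so its count is uncertain. Of the 3043 Apc-specific lower genes 1311 were protein-coding (43.1%, against 72.0% of all genes tested). Of the class, 2294 (75.4%) were higher in WT small intestine than in WT proximal colon, against 23.4% of all genes. That share is in part built into the definition, since the Apc fall and the interaction use the same WT libraries. Genes with at least 1 CPM in both WT tissues made up 55.7% of the class, against 70.9% of all genes.

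**Figure D3:**
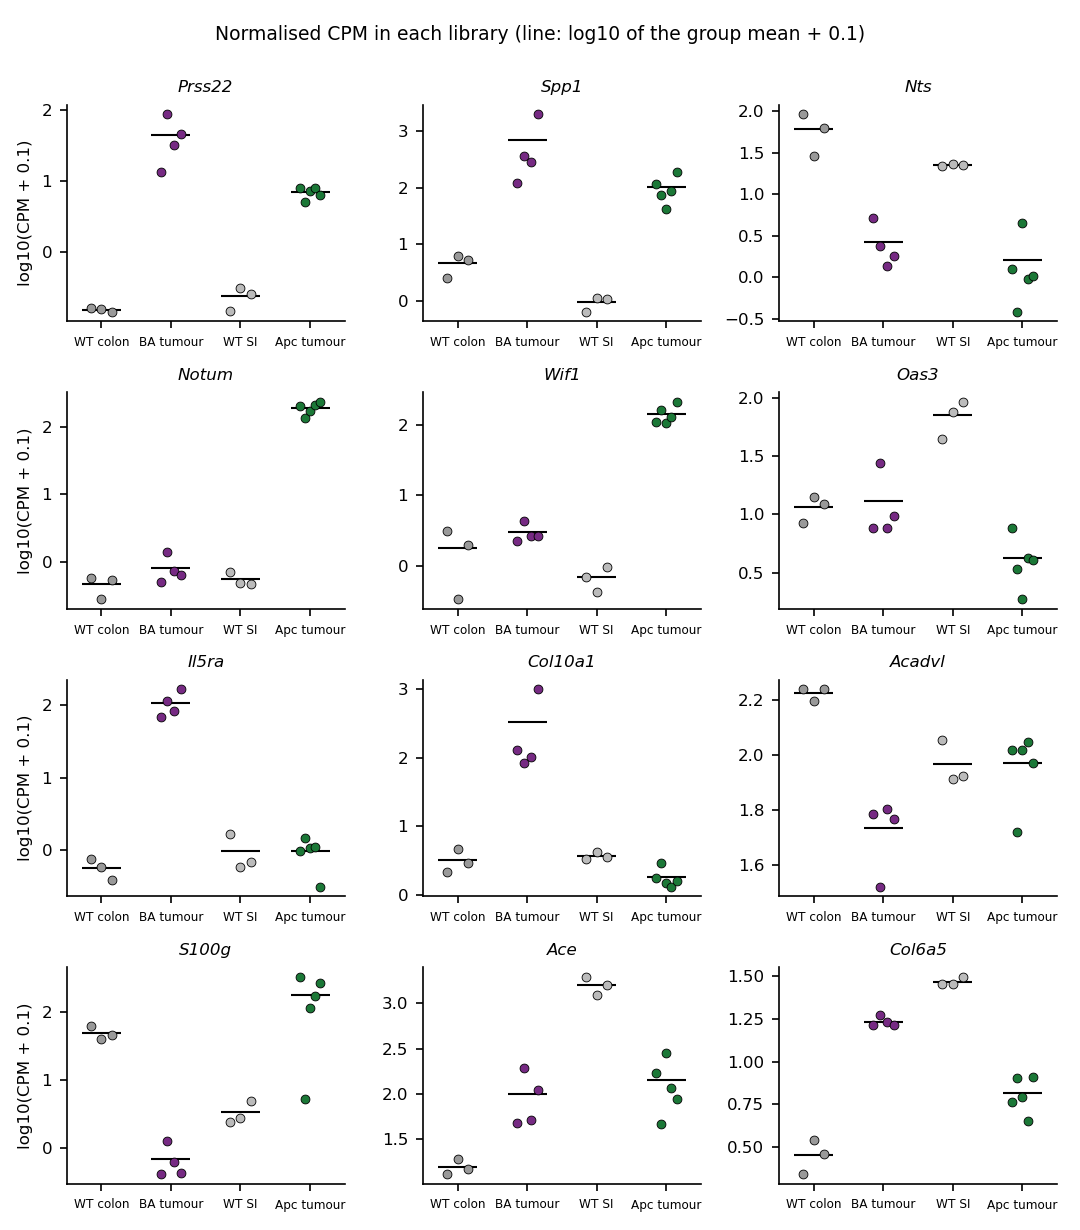
Each point is a library (4 BA tumours, 3 WT proximal colons, 5 Apc fl/+ tumours, 3 WT small intestines) and each line the group mean, as log10 of normalised CPM plus 0.1. The rows show shared genes, Apc-specific genes, BA-specific genes and genes of opposite effect, and Notum and Il5ra each stand high in 1 tumour group only.

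BA-specific rises included a cytokine receptor, a collagen and ERK targets. Il5ra, the interleukin 5 receptor subunit (GRCm38 chr6:106710357-106749037, on the chromosome that also carries Braf), stood at 68.6, 114, 83.8 and 166 normalised CPM in BA tumours. No other library exceeded 1.54. The BA effect was 7.82 ± 0.62, the Apc effect -0.03 ± 0.51 and the interaction 7.85 ± 0.76 (adjusted p = 2.03e-05).

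Col10a1, a short-chain collagen, stood at 128, 84.2, 103 and 981 normalised CPM in BA tumours and at 1.23 to 4.56 in all other libraries, with an interaction of 7.76 ± 1.10. It overlaps Nt5dc1 on the other strand, and the strand setting of the counts is not given in the sources used here. Csta1, a cysteine protease inhibitor, rose by 7.87 ± 1.63 but unevenly, at 1.30, 60.2, 9.48 and 5.00 in BA tumours. Uty, a Y-linked gene, met the rule for naming because sex was unevenly spread, and it says nothing of tumours.

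Among the ERK targets, Dusp5, the nuclear ERK phosphatase, stood at 13.8, 29.7, 15.9 and 18.7 normalised CPM in BA tumours against 5.53, 4.50 and 3.90. In Apc tumours it stood at 7.83 to 16.5 against 10.3 to 14.1. The BA effect was 2.06 ± 0.30 and the interaction 2.12 ± 0.39 (adjusted p = 0.00128). Epha2, a receptor tyrosine kinase, showed the same (BA effect 2.63 ± 0.33, Apc effect 0.21 ± 0.29). Etv5, an ETS factor of the same list, was Apc-specific higher instead (4.04 ± 0.29 against -0.27 ± 0.25), with 28.7% of its 36-base words shared with another transcript. Mmp7, a protease of Paneth cells and tumours, stood at 7.66, 120, 116 and 57.9 in BA tumours against 4.00, 0.585 and 2.72, and at 158 to 289 in Apc tumours against 75.5 to 136. Its Apc effect did not pass (1.01 ± 0.63), although every Apc tumour was above every WT small intestine. In the early libraries Mmp7 passed in Apc fl/fl intestine (1.23, adjusted p = 0.00511) and not in BA colon (0.45, adjusted p = 0.767), where it was at most 1.09 normalised CPM.

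Of 15 macrophage genes 12 rose in BA tumours and 4 in Apc tumours, against 12.3% and 23.4% of all genes. The BA count was 4 with the Ddx3y covariate, 7 with each effect fitted alone and 7 without WT proximal colon 3. The summed level was 938.6 to 4002 CPM in BA tumours against 592.5 to 673.2, and 424.4 to 1057 in Apc tumours against 409.5 to 508.2. Of these genes 3 were BA-specific by the interaction (Cd68, C1qb and Fcgr1) and 4 were shared, so a difference between routes was shown for few of them. Tgfb1, the TGFβ ligand, was BA-specific higher (2.19 ± 0.31 against 0.38 ± 0.28), as were the transducer Smad4 (0.85 against -0.45) and the feedback repressor Skil (1.22 against 0.16). Without both libraries Tgfb1 was shared higher. Ltbp2, a matrix protein of the latent TGFβ-binding family, rose in both but by 7.14 ± 0.38 against 1.44 ± 0.28, an interaction of 5.70 ± 0.42. In the Notch pathway the receptor Notch3 (1.66 ± 0.27), the ligand Jag1 (1.40) and the target Heyl (2.72 ± 0.37) were BA-specific higher, whereas the targets Hes1 (1.78 ± 0.22) and Hey1 (3.09 ± 0.43) were Apc-specific higher.

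Among the lists, BA-specific falls were most numerous in fatty acid oxidation. Of all 697 BA-specific lower genes, 525 (75.3%) were higher in WT proximal colon than in WT small intestine, against 21.8% of all genes. That share is in part built into the definition, since the BA fall and the interaction use the same WT libraries. For 437 of the class the WT tissues differed and the tumours did not. Of 20 genes of fatty acid oxidation and ketogenesis 18 fell in BA tumours, against 9.71% of all genes. In Apc tumours 4 rose and 4 fell, against 23.4% and 26.3% of all genes. By class 9 were BA-specific lower, 3 shared lower and 3 opposite. Acadvl, the very long-chain acyl-CoA dehydrogenase, stood at 61.0, 33.1, 63.8 and 58.3 normalised CPM in BA tumours against 174, 158 and 174, a BA effect of -1.64 ± 0.25. In Apc tumours it was at 104, 52.5, 105, 112 and 93.4 against 113, 82.0 and 83.9, an Apc effect of 0.00 ± 0.24. The WT tissues differed for Acadvl, higher in colon by 0.86 (log2). Cpt2, the inner carnitine palmitoyltransferase, fell by 1.31 ± 0.20 in BA tumours, and the trifunctional protein gene Hadha by 1.14. Car3, a muscle and fat carbonic anhydrase, ranked high with 0.215 to 0.269 in BA tumours against 2.1, 61.1 and 29.1 in WT proximal colon. The WT libraries differed widely for it, as for Gal3st2c, a galactose sulphotransferase (7.63, 425 and 3.71). Slc30a10, a manganese exporter, fell by 4.85 ± 1.29 and was opposite without both libraries. 1810065E05Rik stood at 167 to 490 normalised CPM in BA tumours against 1627 to 3410 in WT proximal colon, and kept its class in only 4 of the 22 alternative settings tried. Others of low stability were Slc2a2 (5 of 22), Uty (8), Naaladl1 and Mug1 (9 each) and Csta1 (10).

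Genes of opposite effect mostly converged from unlike normal levels. Of 992 such genes, 906 differed between the WT tissues and 523 between the tumours (BA against Apc tumours, where 31.2% of all genes passed). The difference between tumours was smaller than that between WT tissues in 807 genes (81.4%, against 64.0% of all genes), with medians of 0.662 and 1.52 (absolute log2). Of 528 genes that rose in BA and fell in Apc tumours, 495 were higher in WT small intestine. Of 464 that fell in BA and rose in Apc tumours, 409 were higher in WT proximal colon. In 401 genes (40.4%, against 5.38% of all genes) the tumours differed with the sign turned, so their order crossed. Convergence and crossing are in part built into the definition, since opposite effects enlarge either. Without both libraries, 916 of 2158 crossed (42.4%).

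**Figure D4:**
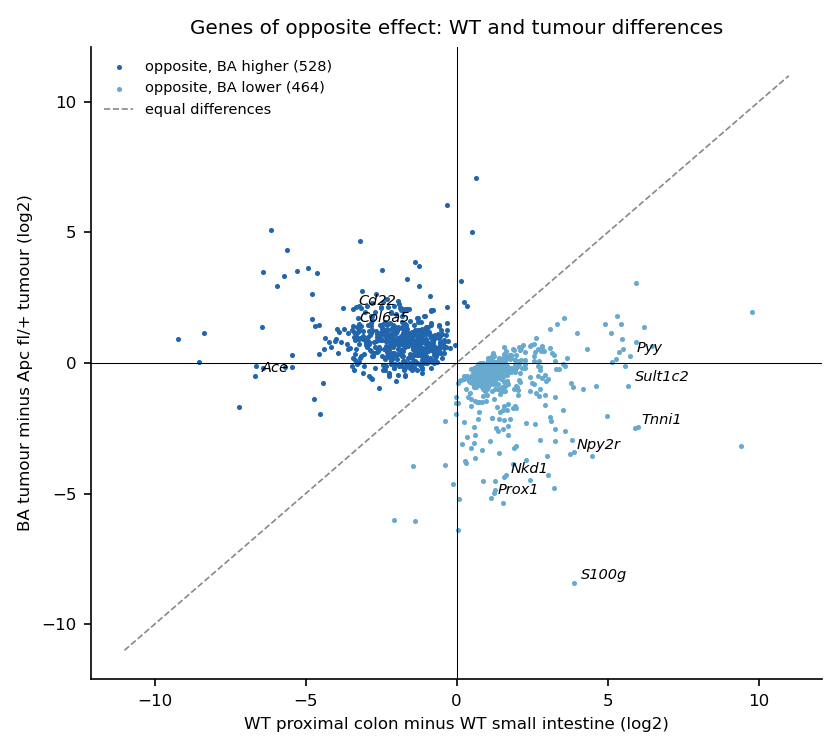
Each point is a gene of opposite effect, with the WT tissue difference on the x axis and the tumour difference on the y axis (log2), and the dashed line marks equal differences. Most points lie near 0 on the y axis, and S100g, Prox1 and Nkd1 lie far below it although WT colon was the higher tissue.

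S100g, the vitamin D-induced calcium-binding protein calbindin-D9k (GRCm38 chrX:162961992-162964599), ranked first among genes that fell in BA and rose in Apc tumours. BA tumours stood at 0.314, 1.18, 0.517 and 0.322 normalised CPM against 61.5, 39.7 and 46.0 in WT proximal colon. Apc tumours stood at 329, 5.16, 113, 173 and 268 against 2.34, 2.69 and 4.83 in WT small intestine. The low Apc library was the one labelled Apc fl/+ tumour 2. The BA effect was -6.59 ± 0.99, the Apc effect 5.75 ± 0.98 and the interaction -12.34 ± 1.42 (adjusted p = 6.9e-05). S100g overlaps Ctps2 on the other strand, and with the strand setting unknown their reads may not be told apart.

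Tnni1, the slow skeletal troponin I gene, stood at 0.689 to 1.17 normalised CPM in BA tumours against 17.8 to 26.9, and at 3.42, 11.6, 2.59, 3.41 and 4.31 in Apc tumours against 0.248, 0.377 and 0.420. Its interaction was -8.41 ± 0.71. Sult1c2, a sulphotransferase, and Npy2r, a receptor of peptide YY, had interactions of -6.55 ± 1.13 and -7.22 ± 1.02.

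Of the Wnt list 4 genes went in opposite directions. Nkd1, a feedback inhibitor, fell to 11.6, 12.6, 11 and 5.32 normalised CPM in BA tumours from 22.2, 27.4 and 14.0, and rose to 175 to 226 in Apc tumours from 6.72 to 7.45. Its interaction was -5.92 ± 0.38 (adjusted p = 8.13e-07). Prox1, a homeobox regulator, had effects of -1.11 ± 0.34 and 5.19 ± 0.41, the stem cell factor Ascl2 of -2.60 ± 0.36 and 1.52 ± 0.33, and the receptor Tnfrsf19 of -2.09 ± 0.34 and 3.20 ± 0.35. For each of the 4, every Apc tumour was above every BA tumour. The WT tissues differed for Nkd1 and Prox1, higher in colon, and not for Ascl2 and Tnfrsf19 (adjusted p = 0.491 and 0.887). Of 29 TGFβ and BMP genes 3 were opposite with BA lower, against 2.14% of all genes. The BMP target Id1 fell by 0.72 ± 0.20 in BA tumours and rose by 1.76 ± 0.20 in Apc tumours, Id3 fell by 0.84 ± 0.22 and rose by 1.75 ± 0.23, and the inhibitory Smad6 fell by 1.10 ± 0.20 and rose by 1.03 ± 0.20. The ligands Bmp4 (1.38 ± 0.25) and Bmp7 (2.36 ± 0.21) were Apc-specific higher, and the BMP antagonist Grem1 rose by 3.84 ± 0.41 in BA and 1.82 ± 0.37 in Apc tumours. Of 18 goblet genes 3 were opposite with BA lower, Agr2, Foxa3 and Klk1. In WT proximal colon 2 these goblet genes were far below the other 2 libraries (Agr2 335 normalised CPM against at least 2743).

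In the other direction, Ace, the angiotensin-converting enzyme of the brush border, rose from 13.0, 19.2 and 14.9 normalised CPM to 47.5, 194, 51.8 and 111 in the colon. It fell from 1961, 1232 and 1580 to 172, 47.1, 285, 118 and 87.6 in the small intestine, so the tumours came to overlap. Col6a5, a collagen VI chain, stood at 16.3, 18.6, 16.9 and 16.3 in BA tumours against 2.1, 3.39 and 2.77. In Apc tumours it stood at 5.69, 7.98, 6.14, 4.41 and 8.00 against 28.2, 28.4 and 31.2. Its effects were 2.63 ± 0.23 and -2.18 ± 0.19 and its order crossed. Bst1, an NAD-consuming ectoenzyme, had effects of 2.71 ± 0.85 and -2.81 ± 0.66. Cd22, a B cell receptor, stood at 8.08 to 13.7 in BA tumours against 0.933 to 2.22. It stood at 1.98 to 3.63 in Apc tumours against 34.6, 5.27 and 6.19, the highest being WT small intestine 1. Other opposite genes with BA higher were Csf1r, the macrophage growth factor receptor (0.94 ± 0.23 and -0.74 ± 0.22), Pfkfb3, a glycolytic regulator (2.15 ± 0.45 and -1.23 ± 0.38), and the BH3-only gene Pmaip1 (2.18 ± 0.37 and -0.92 ± 0.32).

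The classes were then counted in libraries that had no part in forming them. Early libraries comprised 5 BA and 4 WT proximal colons at day 30 after induction and 10 Apc fl/fl and 6 WT small intestines at day 4. All of the small intestine libraries there were of the mixed background, and the Apc mice carried 2 floxed copies. Counts per library were 10005066 to 32824795, apart from 1 Apc fl/fl library at 516985. Region markers matched the labels. The early interaction passed for 7042 of 19255 genes (36.6%), with 3671 positive (19.1%) and 3371 negative (17.5%). The early BA effect passed for 31.5% (15.5% higher, 16.0% lower) and the early Apc effect for 57.6% (28.7% and 28.9%).

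Opposite and specific genes kept their side more often than other genes did. Of the opposite genes with BA higher 51.3% had a positive early interaction and 1.22% a negative one, against 19.8% and 18.2% of all genes tested in both fits. Of those with BA lower 50.9% had a negative and 2.43% a positive one. BA-specific higher genes were positive in 41.6%, Apc-specific lower genes in 35.6%, and Apc-specific higher genes negative in 37.2%. The difference between normal colon and normal small intestine enters both interactions with the same sign, so its part in these shares cannot be told apart from that of the genotypes.

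**Figure D5:**
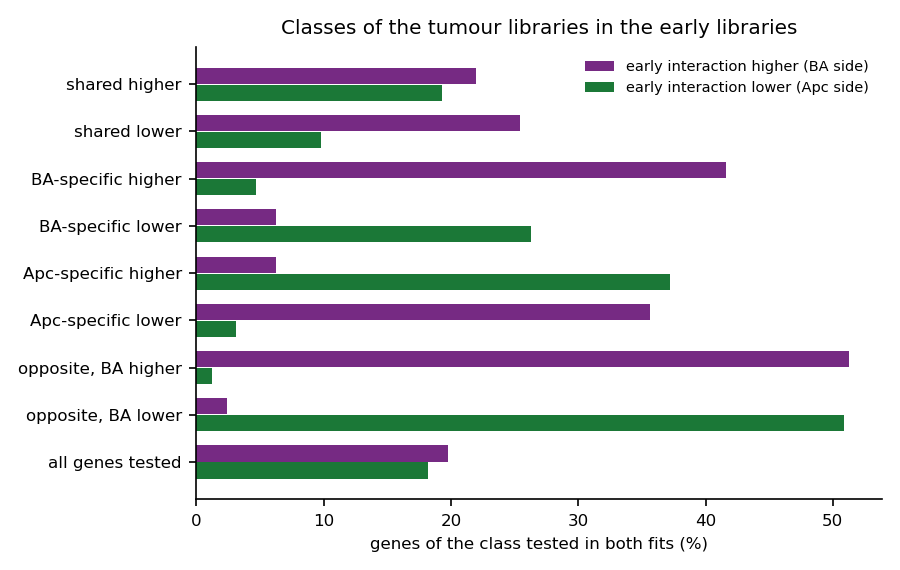
Bars give the percentage of each class of the tumour contrast, among genes tested in both fits, with a positive or negative early interaction (adjusted p under 0.05). The specific and opposite classes lean to their own side, at 26.3% to 51.3%, and shared higher genes do not (22.0% and 19.3%, beside 19.8% and 18.2% of all genes).

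Single genes showed which differences were present early. Il5ra was 7.78 higher in BA colon at day 30 and -0.21 in Apc fl/fl intestine at day 4 (log2). The Wnt genes Nkd1 (-0.99 and 2.01), Prox1 (-1.13 and 2.26), Ascl2 (-1.13 and 2.41) and Tnfrsf19 (-1.40 and 3.28) passed in opposite directions in the early libraries too, as did Tnni1 (-3.66 and 2.97). S100g fell in both there (-8.10 and -1.34), so its rise was seen only in the Apc tumours. Notum rose in Apc fl/fl intestine (4.40), and Wif1 was -0.11. Prss22 rose by 8.26 in BA colon. Its fitted effect in Apc fl/fl intestine was 2.02, although the median there was 0.365 normalised CPM (range 0 to 19.9) against 0.605 in the day 4 WT small intestine. Spp1 was 0.47 in early BA colon, with no call, and 3.44 in Apc fl/fl intestine. Several lists changed side between the tumours and the early libraries. The interaction was positive for 1 and negative for 12 of 20 fatty acid oxidation genes in tumours, and early for 9 and 3. For 15 glycolytic genes the counts were 1 and 8 in tumours and 11 and 1 early. For goblet genes they were 1 and 9 of 18 in tumours and 8 and 2 early. For keratin and junction genes they were 1 and 11 of 25 in tumours and 10 and 3 of 23 early. Of all genes 21.9% were positive and 17.7% negative in tumours, and 19.1% and 17.5% early. Of the foetal list 11 of 22 genes had a positive early interaction and 1 a negative one. Interferon genes had 2 of 18 on either side, and Oas3 was -0.20 and -0.05. The collagen gene Col1a1 was -0.01 and -0.03.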

How the data were processed

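Raw read counts per gene were deposited by the authors as 1 table of all libraries. Per the labels and the study's methods, reads were trimmed with Trim Galore 0.6.4, aligned to GRCm38 with HISAT2 2.1.0 and counted with featureCounts 1.6.4, and the strand setting is not given in the sources used here. The 15 libraries (12021486 to 29106913 counts) were fitted in 1 model of 4 groups with edgeR 4.0.16 (quasi-likelihood, TMM scaling, Benjamini-Hochberg adjusted p under 0.05), after its filter on low counts left 21668 genes. Values with ± are log2 fold changes and standard errors, and normalised CPM are counts scaled to the TMM library size. The early libraries were fitted apart. Of 55421 identifiers, 55240 had a symbol in GENCODE M21. The members, gene lists and tests were chosen with earlier results of these data known. By rule, list genes and the 4 protein-coding genes ranked first in each class were named (by the smaller absolute effect for shared and opposite genes, by the interaction for specific ones), where the mean log2 CPM was 2 or more and tumours did not overlap WT. Some genes are not reported here. Replicate numbers did not pair the libraries. The fit of the interaction was also run on simulated counts in which genes changed in BA tumours only. That setting is simpler than these data, and its outcome is not given here. Alternatives comprised other scaling, filters, tools, thresholds, a Ddx3y covariate and leaving out each library. Counting error was not set apart from the spread between libraries, and values near 0 rest on few counts.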

Additional observations from a re-analysis of the deposited data

Results flagged for a closer look

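Of 96 groups of named-gene values tested with Dixon's criterion, 25 held a library far from the others. Of these, 8 lay in the library labelled Apc fl/+ tumour 2, 8 in BA tumour 2 and 4 in BA tumour 4. The criterion takes values to be normally distributed, whereas these were linear values of genes chosen for large effects. The count is therefore not set against chance. Values are normalised CPM.

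The library labelled Apc fl/+ tumour 2 stood apart for Ly6g (25), Hoxa10 (47.7), Slc2a2 (1.05), Col10a1 (2.87), Csta1 (1.43), Gal3st2c (16.5), 1810065E05Rik (37.2) and Tnni1 (11.6). BA tumour 2 stood apart for Naaladl1 (23.8), Tff2 (0.969), Oas3 (27.7), Mbl2 (8.29), Slc5a12 (41.9), Slc2a2 (69.3), Csta1 (60.2) and Slc30a10 (5.49). BA tumour 4 stood apart for Spp1 (1940), Col10a1 (981), T (0.0806) and Mug1 (0.0806). The T and Mug1 values lie below the floor of 3 counts in that library (0.122 CPM). The rest were Nts (4.41) and Naaladl1 (55.0) in Apc fl/+ tumour 3, Mug1 (73.9) in Apc fl/+ tumour 4, Uty (46.9) in Apc fl/+ tumour 1 and Sult1c2 (33.6) in Apc fl/+ tumour 5.

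The tumour effects differed between routes with opposite signs, by the interaction test, for the 8 opposite genes named by rule. Interactions (log2) were -12.3 for S100g, -8.41 for Tnni1, -6.55 for Sult1c2 and -7.22 for Npy2r, and 6.17 for Ace, 5.53 for Bst1, 5.52 for Cd22 and 4.82 for Col6a5.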

How the results depend on the processing

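None of the 534 gene results reversed under any alternative. The Ddx3y covariate lost the most calls (127 of 399), with 2712 genes called for the BA effect, 630 shared, 529 BA-specific, 224 by the interaction alone, and list counts of 9 (foetal), 5 (neutrophil), 7 (ERK), 5 (interferon), 4 (T cell) and 4 (macrophage). Without both libraries of mixed region, shared genes were 2246, opposite 2158, and 392 opposite genes with BA lower had a negative early interaction. Without the low-count filter 633 genes were opposite, and limma voom called 8 gastric genes in the Apc effect. Each effect fitted alone gave 2527 genes for the BA effect and 7 macrophage genes.

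At an adjusted p under 0.01 the interaction passed for 4390 genes, the BA effect for 2315, the Apc effect for 6854 and the WT difference for 5806, with 716 shared, 236 opposite, 652 BA-specific and 2785 Apc-specific, and list counts of 9 (foetal), 4 (enteroendocrine), 7 (T cell) and 6 (macrophage). A log2 fold change over 1 in addition left 3052 for the BA effect, 6920 for the Apc effect, 927 shared, 430 opposite, 1553 by the interaction alone and 10 cholesterol genes. Among genes of at least 1 CPM in both WT tissues the list counts were 8 (proteases), 5 (inflammatory), 2 (neutrophil), 2 (gastric) and 9 (keratins). The cause of these changes was not tested, beyond the fewer genes that stricter settings admit.

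Leaving out each library in turn gave 2642 to 5691 genes for the BA effect, 413 to 1540 opposite genes, 725 to 1568 BA-specific genes, 5 to 9 enteroendocrine and 7 to 13 macrophage genes. The lowest of the first 3 came without WT proximal colon 1, and the most opposite genes without BA tumour 2. With 2 libraries left in an arm, the spread is shared with the other groups.

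Same-numbered libraries did not deviate together (r of -0.26 to 0.115 over 19 pairs), so the numbers do not pair them. With the replicate block 965 genes were shared, 481 opposite and 1113 called by the interaction alone.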
